A study of Mus musculus with 6 samples.

Results

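The dystrophin-glycoprotein complex was followed in differentiated C2C12 myotubes through 8 of its genes, listed in the array file as DMD, UTRN, DAG1, SGCA, SGCB, SGCD, SNTB1 and DTNA. Every probe listed under one of these names was taken, whatever the case of its letters, and probes of a gene were kept apart. This gave 24 probes out of 45281 in the file, or 8 of its 30854 target names. C2C12 cells are mouse myoblasts of an established line, which fuse into multinucleated fibres once the serum is lowered. Myoblasts received 60 nM of scramble siRNA or of siRNA against *Dj1*, were switched to differentiation medium 48 h later and were harvested after 96 h in it. There were 3 arrays per group, 6 in all, on a single BeadChip. The labels number the samples but do not say that they were separate cultures, so all p-values measure the spread between these samples, which may be technical.

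The complex ties the actin cytoskeleton of a muscle fibre to the extracellular matrix. Dystrophin binds actin inside the cell and dystroglycan at the membrane, dystroglycan binds laminin outside, and the sarcoglycans form a transmembrane subcomplex beside it. Syntrophins and dystrobrevin dock on dystrophin from the cytoplasm, and utrophin is a paralogue that can take the place of dystrophin. Loss of dystrophin causes Duchenne muscular dystrophy, and loss of a sarcoglycan causes limb-girdle forms.

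In these myotubes SGCA, the gene of α-sarcoglycan, was lower after *Dj1* knockdown on all 3 of its probes, to between 63.4% and 68.6% of the scramble level. No tested probe of another member gene was called lower. DMD was hardly above background on any array, 1 dim probe each of UTRN and DTNA was higher, and no probe of DAG1, SGCB, SGCD or SNTB1 passed the test. In all, 15 of the 24 probes could be tested, of which 3 were lower and 2 higher at an adjusted p under 0.05 (limma). Over the whole array the shares were 13.6% lower and 16.5% higher, together 30.1% of the 17890 probes tested, so that the number of member probes that changed is near the general level. The median log2 change was 0.0043 over the member probes tested and 0.046 over all. The groups did not overlap for 4 member probes in the lower and 2 in the higher direction. Over all tested probes these shares were 22% and 26.5%, together 48.5%.

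The knockdown itself was read from the single probe of *Dj1*, listed as *Park7*. Its signal was 12020, 10900 and 12251 with scramble siRNA and 5935, 6586 and 4234 with DJ-1 siRNA, which do not overlap. The log2 fold change was -1.16 (adjusted p = 0.00344 from limma, with a standard error of 0.14). A probe counted as detected on an array when its detection p-value, which sets its signal against the negative controls, was under 0.05, and it was tested when detected on at least 3 of the 6 arrays. The lowest signal of a detected probe was 186.8, 187.4 and 167.2 with scramble siRNA and 171.3, 176.8 and 161.6 with DJ-1 siRNA. Fewer probes were detected on the scramble arrays (16985, 17399 and 18179) than with DJ-1 siRNA (18704, 18857 and 18408). Noise over beads, as the median standard error of all probes, was 11.3, 8.30 and 8.66 against 7.17, 6.36 and 5.88. Over all probes the noise was thus higher in the scramble group, and the part of this in the results for dim probes was not tested.

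DMD, the gene of dystrophin, has 3 probes, and 2 of them were detected on no array. The probe ILMN_2433876 gave 231.8, 135.2 and 139.2 with scramble siRNA and 143.2, 164.2 and 153.8 with DJ-1 siRNA. It was detected on 1 array, scramble 1, where the value rests on 21 beads with a standard error of 34.2, while on the other arrays it lay under the lowest detected signal. The signal of ILMN_1254679 was between 132.0 and 160.1 and that of ILMN_2672006 between 119.5 and 170.0 over the 6 arrays. No DMD probe could therefore be tested, and the level of dystrophin mRNA in these myotubes was not measurable with these probes.

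Utrophin was nearly as dim. UTRN has 5 probes, of which 3 were detected on no array and 2 could be tested. ILMN_1251617, listed with a cDNA clone record, gave signals of 208.6, 190.7 and 189.1 with scramble siRNA and 237.4, 237.4 and 249.1 with DJ-1 siRNA. All 3 DJ-1 siRNA values lay above all 3 scramble values, and the probe was detected on every array. Normalized, its log2 signal was 5.90 ± 0.25 (SD, n = 3) in the scramble group and 6.80 ± 0.33 (SD, n = 3) after knockdown, a log2 fold change of 0.90 (95% confidence interval 0.42 to 1.38, adjusted p = 0.0188 from limma).

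The size and the call of this rise depended on the processing. Without background correction the log2 fold change was 0.35 (adjusted p = 0.0139 from limma). The adjusted p was 0.0505 without scramble 2, 0.0543 without DJ-1 siRNA 1, 0.0508 without DJ-1 siRNA 3 and 0.0707 with an unmoderated test, within a range of 0.00997 to 0.0707 over all alternatives. The other tested probe, ILMN_1236544, is listed with a RefSeq mRNA. It gave 167.8, 210.9 and 177.8 against 199.1, 217.6 and 186.2, with groups that overlap, and a log2 difference of 0.48 (95% confidence interval -0.06 to 1.02, adjusted p = 0.152 from limma). Without scramble 2 it was 0.70 (adjusted p = 0.0468 from limma). The pattern is thus a rise on 1 of 5 UTRN probes, near the detection limit, and a comparison of utrophin with dystrophin within each array could not be made for want of a tested DMD probe.

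**Figure D1:**
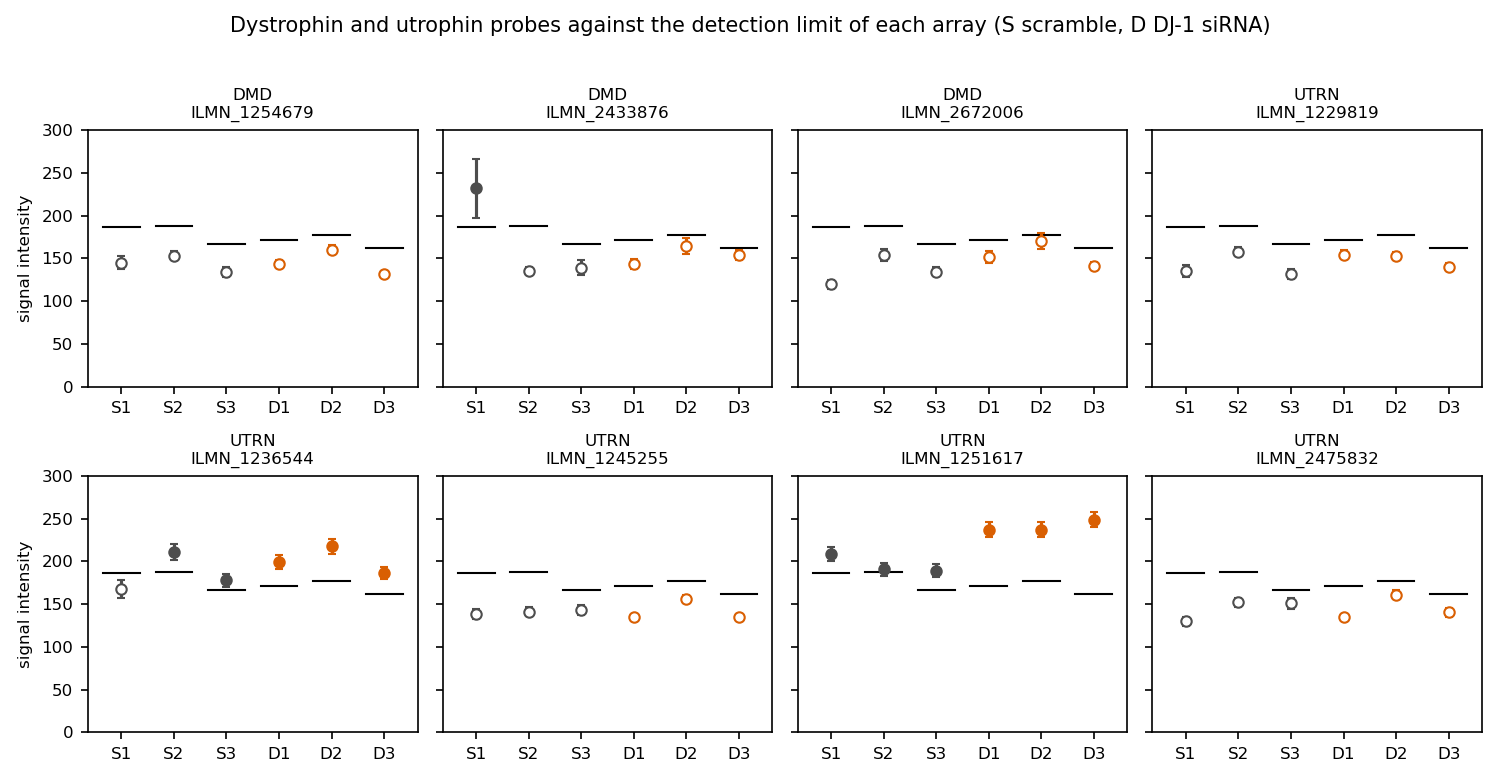
Signal intensity of each DMD and UTRN probe on the 3 scramble (S, grey) and 3 DJ-1 siRNA (D, orange) arrays, with the standard error over beads as bars. Black lines mark the lowest signal of a detected probe on that array (161.6 to 187.4), filled points were detected and open points were not; only UTRN ILMN_1251617 and ILMN_1236544 lie above the lines on most arrays.

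DAG1 encodes the precursor of α- and β-dystroglycan, which link laminin to dystrophin. Both of its probes were bright on every array. ILMN_2724585 gave 7195, 7095 and 6869 with scramble siRNA and 6494, 7437 and 5144 with DJ-1 siRNA. After normalization its groups did not overlap, but the log2 difference of -0.22 did not pass the test (95% confidence interval -0.46 to 0.03, adjusted p = 0.155 from limma). It passed in 1 alternative, a prior variance that follows the signal (adjusted p = 0.0298 from limma, in a range of 0.0298 to 0.698). ILMN_2853957 gave 3085, 3268 and 2315 against 2488, 2737 and 2239, with a log2 difference of -0.24 (95% confidence interval -0.56 to 0.09, adjusted p = 0.228 from limma). Neither a modest fall nor no change can thus be set aside for DAG1.

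Of the sarcoglycans among the members, only SGCA had called probes. SGCA encodes the α subunit, which is found mainly in striated muscle. Its probe ILMN_1248215 gave 1952, 1712 and 1681 with scramble siRNA and 1209, 1479 and 1098 with DJ-1 siRNA. ILMN_2938154 gave 1725, 1814 and 1970 against 1282, 1410 and 1103. ILMN_1222601 gave 513.8, 492.5 and 512.5 against 387.3, 360.0 and 313.2. On each probe all 3 DJ-1 siRNA arrays were below all 3 scramble arrays.

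The normalized log2 signal of ILMN_1222601 went from 8.49 ± 0.11 to 7.83 ± 0.17 (SD, n = 3 each), a log2 change of -0.66 (adjusted p = 0.0108 from limma, with a standard error of 0.12). For ILMN_2938154 it went from 10.73 ± 0.16 to 10.15 ± 0.01, a change of -0.58 (adjusted p = 0.0119 from limma, with a standard error of 0.11). For ILMN_1248215 it went from 10.69 ± 0.11 to 10.14 ± 0.08, a change of -0.54 (adjusted p = 0.0115 from limma, with a standard error of 0.10). The probes thus gave closely similar falls, although they share the same RNA and are not separate replicates. Over the alternatives the changes stayed between -0.75 and -0.45, and the call was lost once, for ILMN_1248215 without DJ-1 siRNA 1 (-0.51, adjusted p = 0.0535 from limma, in a range of 0.000463 to 0.0535). These are bulk samples, in which fewer fused cells and less of this RNA per cell cannot be told apart.

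SGCB, the β subunit, is part of the same subcomplex. ILMN_1255256 gave 4200, 4132 and 3935 with scramble siRNA and 4411, 4536 and 3614 with DJ-1 siRNA. The groups overlap, the normalized difference was 0.0043 (95% confidence interval -0.21 to 0.22, adjusted p = 0.977 from limma), and the interval leaves out a fall as large as that of any SGCA probe. ILMN_1222716 gave 3213, 2410 and 2694 against 3631, 3492 and 2826, a log2 difference of 0.25 (95% confidence interval -0.08 to 0.58, adjusted p = 0.216 from limma). It passed the test in 1 alternative, scaling to the 75th percentile of each array without background correction (adjusted p = 0.0456 from limma, in a range of 0.0456 to 0.476).

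Whether SGCA and SGCB changed unequally was asked within each array, a comparison chosen after the values had been seen. The mean log2 signal of the SGCA probes minus that of the SGCB probes was -1.83, -1.66 and -1.61 with scramble siRNA and -2.48, -2.39 and -2.38 with DJ-1 siRNA. The difference fell by 0.72 between the groups without overlap (p = 0.1 by an exact permutation test, two-sided, which cannot go lower with 3 arrays per group). Against DAG1 the same difference was -2.20, -2.29 and -1.92 with scramble siRNA and -2.49, -2.57 and -2.46 with DJ-1 siRNA. That is a fall by 0.37, again without overlap (p = 0.1 by the same exact permutation test). Both differences restate the falls of the SGCA probes within arrays. Neither p could be under 0.05 with 3 arrays per group, so this test does not decide whether the genes changed unequally.

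SGCD, the δ subunit, has 3 probes, of which 2 were detected on no array. ILMN_2605539 gave 263.8, 256.7 and 238.1 with scramble siRNA and 237.2, 270.2 and 254.7 with DJ-1 siRNA. The groups overlap, with a log2 difference of 0.11 (95% confidence interval -0.25 to 0.47, adjusted p = 0.625 from limma). The ε and ζ subunits, *Sgce* and *Sgcz*, which belonged to a list of further subunits, were detected on no array.

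The stretches just upstream of the annotated starts of Sgca and Sgcb are shown because all SGCA probes were called lower and no SGCB probe was called, in a single subcomplex. Each holds the 250 bases before the start in RefSeq (GRCm38.p6), 5′ to 3′ on the strand of the gene, with matches to CANNTG, the E-box core bound by basic helix-loop-helix factors such as MyoD, in capitals.
Sgca, chr11:94976328-94976577, minus strand: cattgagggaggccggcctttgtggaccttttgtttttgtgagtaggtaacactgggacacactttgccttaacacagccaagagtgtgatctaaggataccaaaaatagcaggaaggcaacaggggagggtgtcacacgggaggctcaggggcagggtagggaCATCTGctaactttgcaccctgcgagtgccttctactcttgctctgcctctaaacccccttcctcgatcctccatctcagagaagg
Sgcb, chr5:73647738-73647987, minus strand: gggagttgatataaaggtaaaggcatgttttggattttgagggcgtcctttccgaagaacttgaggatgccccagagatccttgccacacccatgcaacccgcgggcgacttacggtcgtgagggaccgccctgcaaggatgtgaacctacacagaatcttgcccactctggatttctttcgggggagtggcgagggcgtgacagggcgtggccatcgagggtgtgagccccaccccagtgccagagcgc
The Sgca window holds 1 CANNTG, starting at position -86 before the start, and the Sgcb window holds 0. Searched on both strands, CANNTG was found in 66.2% of the 32851 promoter windows of this length. Neither window holds an exact match to the consensus of a MEF2 site (2.92% of all windows) or of a CArG box (1.47%), motifs known from many muscle genes. Near matches were not counted. Of the 2 windows listed for Dmd, 1 holds a MEF2 site and a CArG box. Other members hold CANNTG as well. Of the windows of Dmd, 1 holds 2 and the other 0. The 2 windows of Dag1 overlap and share 1, that of Sgcd holds 2, one of which also starts at -86, and that of Utrn holds 7. None was listed for Sntb1, and windows of Dtna were not looked up. A match is only a match of letters.

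On the cytoplasmic side, SNTB1, the gene of β1-syntrophin, has a single probe at the detection limit. It gave 159.3, 201.0 and 157.2 with scramble siRNA and 186.5, 157.1 and 188.4 with DJ-1 siRNA, and was detected on 1 and 2 of them. The log2 difference of 0.24 had a 95% confidence interval of -0.66 to 1.14 (adjusted p = 0.662 from limma), which spans both directions.

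DTNA encodes α-dystrobrevin, which binds dystrophin and the syntrophins and has several splice forms. Its 5 probes did not behave alike. The probe ILMN_2572620, listed with a cDNA clone record, gave 194.7, 173.7 and 181.9 with scramble siRNA and 228.2, 241.6 and 251.2 with DJ-1 siRNA, without overlap. It was detected on 2 scramble arrays and on all 3 DJ-1 siRNA arrays. The log2 fold change was 1.19 (95% confidence interval 0.63 to 1.75, adjusted p = 0.0126 from limma). As for UTRN, this size belongs to a signal near background. Without background correction the change was 0.44 (adjusted p = 0.00556 from limma), and with an unmoderated test the call was lost (adjusted p = 0.0587, in a range of 0.00287 to 0.0587).

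The brighter DTNA probes gave no such rise. ILMN_1221805 gave 1954, 1615 and 1331 against 1478, 1548 and 1178, a log2 difference of -0.23 (95% confidence interval -0.58 to 0.12, adjusted p = 0.283 from limma). ILMN_2724339 gave 712.0, 538.7 and 502.6 against 496.6, 516.1 and 447.6, also a difference of -0.23 (95% confidence interval -0.63 to 0.17, adjusted p = 0.345 from limma). Both intervals end below the lower end of the interval of ILMN_2572620. ILMN_2625949 gave 189.8, 259.3 and 179.4 against 248.6, 240.2 and 216.1, a difference of 0.63 (adjusted p = 0.159 from limma), and 1.00 without scramble 2 (adjusted p = 0.0132 from limma, in a range of 0.0132 to 0.339). The fifth probe, ILMN_1222187, was detected on 1 array of each group and was not tested. Which transcripts these probes and those of UTRN read was not examined here, since the probe sequences were not used.

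Both rises among the members, UTRN ILMN_1251617 and DTNA ILMN_2572620, were thus on dim probes. When all tested probes were split by their mean normalized signal into 5 equal groups, these 2 lay in the second dimmest. In that group 14.7% of probes were higher and 12.5% lower after knockdown. In the dimmest group the shares were 14.7% and 5.90%, and in the brightest 16.3% and 15.3%. Lower calls were thus scarcer among the dimmest probes, and the part of bead noise in this was not tested.

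**Figure D2:**
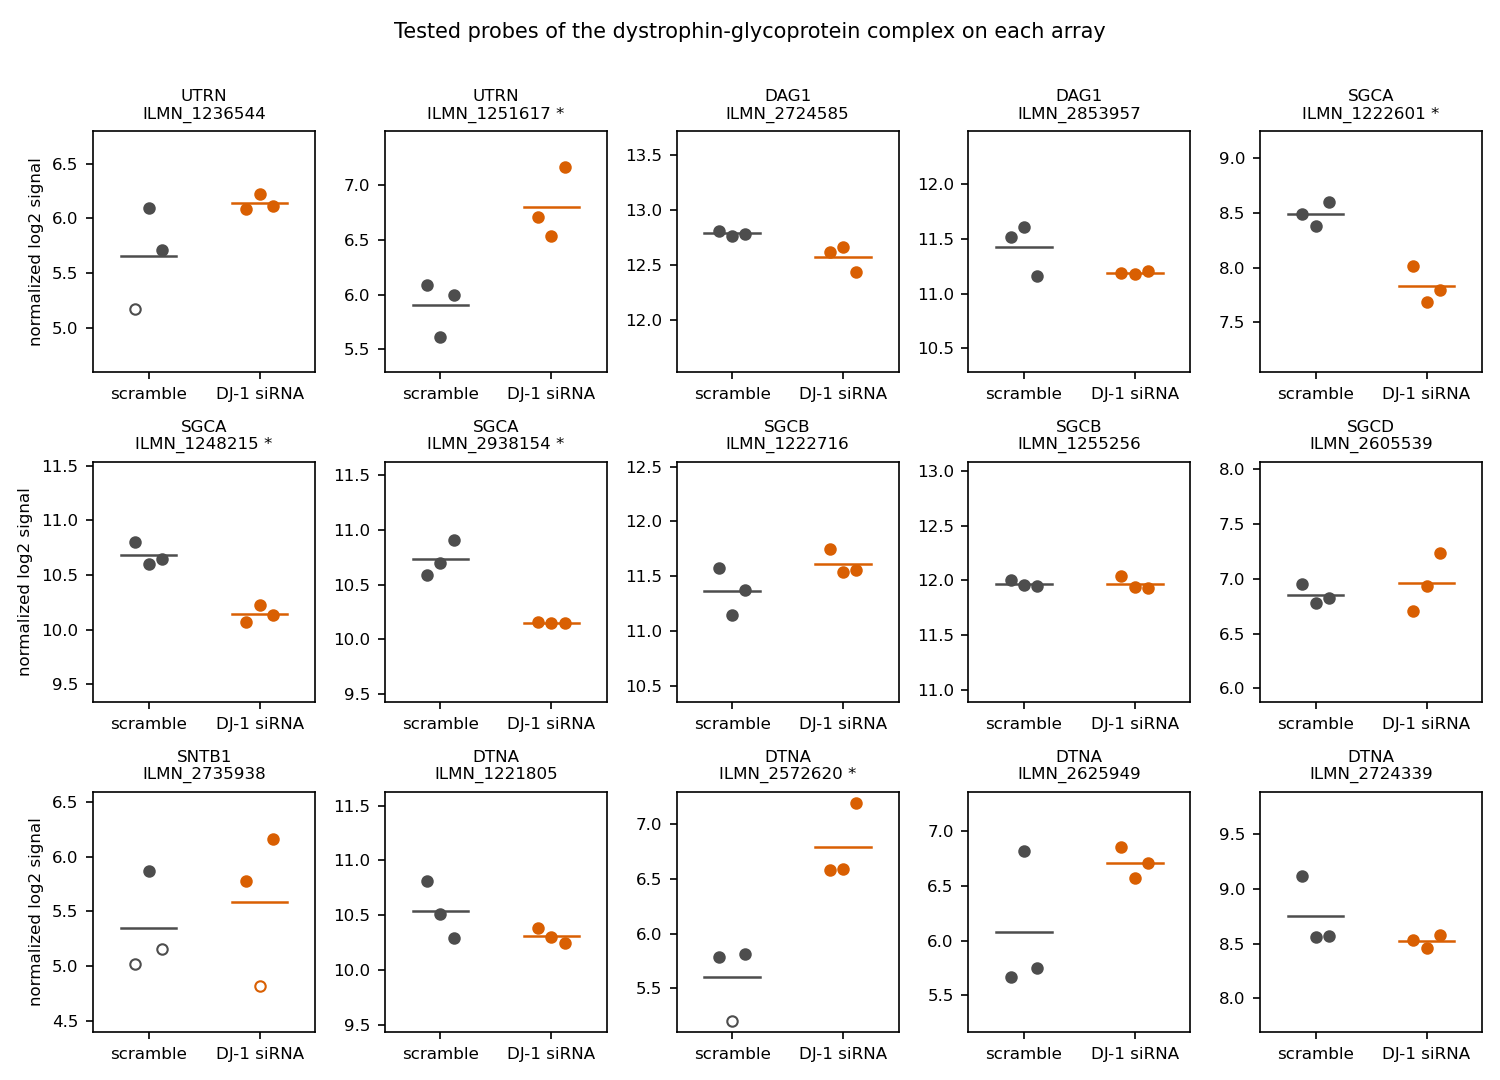
Normalized log2 signal of the 15 tested member probes on each array, scramble in grey and DJ-1 siRNA in orange, with lines at the group means. Every panel spans the same range of log2 units, open points were not detected, and an asterisk marks the 5 probes with an adjusted p under 0.05; the 3 SGCA probes are lower on every DJ-1 siRNA array.

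**Figure D3:**
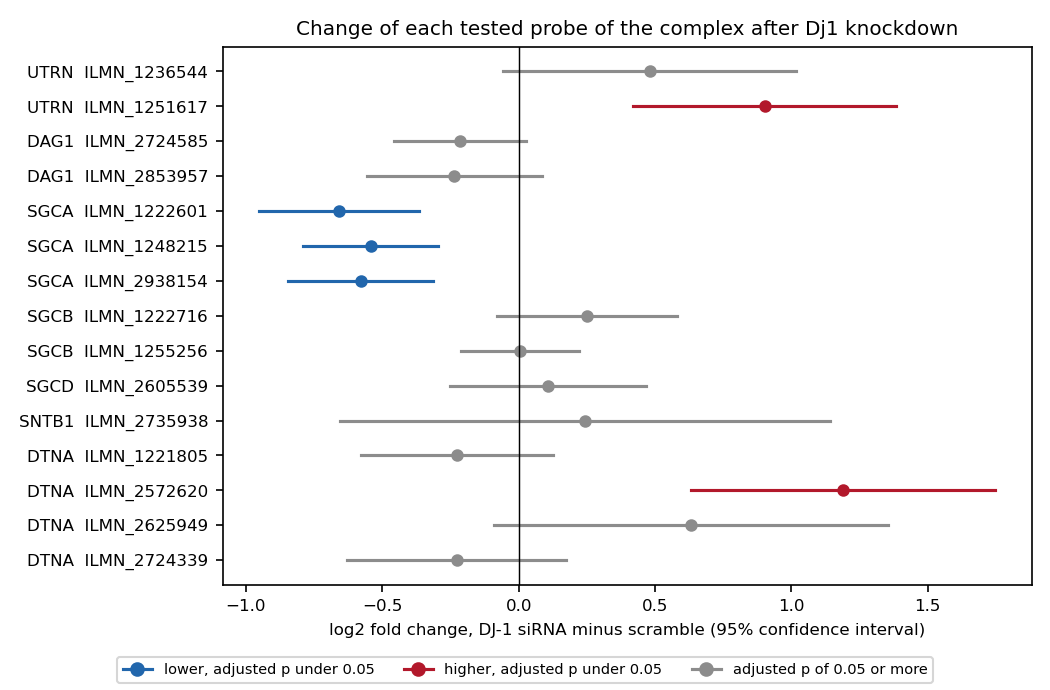
Log2 fold change of each tested member probe, DJ-1 siRNA minus scramble, with its 95% confidence interval from limma. The SGCA probes lie between -0.66 and -0.54, the called UTRN and DTNA probes at 0.90 and 1.19, and the intervals of the other 10 probes include 0.

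When the tested probes of each gene were averaged before the fit, the change was -0.59 for SGCA (adjusted p = 0.00518 from limma), 0.69 for UTRN (adjusted p = 0.00742) and 0.34 for DTNA (adjusted p = 0.0490). The mean of UTRN rests on 2 of its 5 probes, both dim, and ILMN_1236544 did not pass the test alone (adjusted p = 0.152 from limma). The mean of DTNA joins probes that point in opposite directions and stands for none of them. DAG1 (-0.23), SGCB (0.13), SGCD (0.11) and SNTB1 (0.24) did not pass the test as means either.

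Proteins that join or bind the complex were taken as 4 lists with 110 probes of 49 genes, of which 57 probes could be tested. Of these, 12 were lower and 10 higher after knockdown (38.6%, beside 30.1% over the whole array). With scaling to the 75th percentile after background correction they were 8 and 13, so that the balance of directions turns. Both counts also depend on single arrays, as do those over all probes. Without DJ-1 siRNA 1 they were 4 and 5, and without DJ-1 siRNA 3 they were 7 and 5. Without scramble 3 they were 7 and 5, and without scramble 2 they were 8 and 6. Over all probes 5387 were called, and 2564, 2718, 3971 and 3776 without these arrays in the same order.

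Of the further subunits, 6 of 15 probes were tested, with a median log2 change of 0.56. *Drp2*, with the highest signal of the list, fell and *Sntb2* rose. *Drp2* encodes a dystrophin-related protein best known from Schwann cells. It gave 1866, 1944 and 1547 with scramble siRNA and 1005, 1216 and 967 with DJ-1 siRNA. It fell by 0.80 on the log2 scale (adjusted p = 0.00514 from limma, with a standard error of 0.11), to 57.4% of the scramble level, and was called in every alternative. *Sntb2* encodes β2-syntrophin.

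All 3 *Sntb2* probes were higher. ILMN_2692942 gave 183.5, 198.8 and 189.7 with scramble siRNA and 265.4, 257.1 and 283.3 with DJ-1 siRNA. Its log2 fold change was 1.34 (adjusted p = 0.00698 from limma), and 0.55 at the least, without background correction. The 14 alternatives that tested it all called it. On scramble 1 its signal lay under the lowest detected signal of 186.8, so the size of the rise is uncertain. The brighter probes ILMN_1217790 (0.84, adjusted p = 0.0462) and ILMN_1248791 (0.83, adjusted p = 0.0483) were near the threshold of limma's test, and they lost the call in 8 and 6 of 15 alternatives. Without background correction they gave 0.52 and 0.49. For the first of these, leaving out any array but DJ-1 siRNA 2 gave an adjusted p of 0.0605 to 0.115. For the other, leaving out scramble 2 or 3 or DJ-1 siRNA 1 or 3 gave 0.105 to 0.148. *Sntg2* was detected on no array.

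Of the matrix ligands, 12 of 19 probes were tested, with a median of 0.25. *Lama5*, a laminin chain, rose by 0.78 on the log2 scale (adjusted p = 0.0111 from limma) in every alternative. *Lama1*, the laminin chain of early embryonic basement membranes, was detected on all 3 scramble arrays and on 0 DJ-1 siRNA arrays. It gave 215.8, 256.2 and 182.2 with scramble siRNA and 151.3, 154.2 and 156.4 with DJ-1 siRNA and was lower (adjusted p = 0.0108 from limma), by an amount that is not measurable, since the DJ-1 siRNA values are at background. The probe passed the detection filter through the scramble arrays alone, and without a filter its adjusted p was 0.0227 (limma). Only the unmoderated test lost this call (adjusted p = 0.0544, in a range of 0.00239 to 0.0544).

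Agrin, *Agrn*, rose by 0.36 (adjusted p = 0.0376 from limma), a call lost in 7 of 15 alternatives, with an adjusted p of 0.0623 to 0.122 when any array but scramble 1 was left out. Perlecan, *Hspg2*, has probes that disagree. ILMN_2685329 gave 9304, 8563 and 7644 against 11003, 12022 and 11081 and rose by 0.38 (adjusted p = 0.0368 from limma). ILMN_2578369, listed with a cDNA clone record, gave 317.7, 392.5 and 360.8 against 203.8, 208.3 and 193.1 and fell by 1.58 (adjusted p = 0.00285 from limma). Which transcript this probe reads was not examined. The fall was called in every alternative, at 0.76 without background correction, and the rise in 8 of 15. Leaving out any array but scramble 1 took the adjusted p of the rise to between 0.0758 and 0.115. Biglycan, *Bgn*, with the highest signal of the list, gave -0.24 (adjusted p = 0.0862 from limma). It was called lower in 3 of 15 alternatives, namely without background correction (adjusted p = 0.0328), with a prior variance that follows the signal (adjusted p = 0.00280) and with an unmoderated test (adjusted p = 0.0258), and gave 0.04 with scaling to the 75th percentile after background correction.

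Dystroglycan binds laminin only through sugars that a chain of enzymes builds on it. Of the probes for these enzymes, 25 of 33 were tested, with a median of -0.10, and 4 were lower and 3 higher, beside 13.6% and 16.5% of all tested probes. *Pomt1* and *Pomt2*, which together form the enzyme that adds the first mannose, were on opposite sides, on 1 tested probe each. *Pomt2* gave 347.8, 462.7 and 403.6 with scramble siRNA and 278.6, 292.0 and 267.2 with DJ-1 siRNA, a fall by 0.77 (adjusted p = 0.0182 from limma), or by 0.46 without background correction. The *Pomt1* probe ILMN_2694092 was detected on 0 scramble arrays and on 3 DJ-1 siRNA arrays and gave 155.2, 164.1 and 161.6 against 183.8, 187.8 and 179.9. It was higher (adjusted p = 0.0137 from limma), by an amount that is not measurable so near background. This probe passed the detection filter through the DJ-1 siRNA arrays alone, and without a filter its adjusted p was 0.0298 (limma). The call for *Pomt2* was lost in 4 of 15 alternatives, of which leaving out scramble 3, DJ-1 siRNA 1 or DJ-1 siRNA 2 gave an adjusted p of 0.0523, 0.0662 and 0.0560. That for *Pomt1* was lost in 1 of 14, without background correction (adjusted p = 0.0505 from limma). The other *Pomt1* probes could not be tested. ILMN_2662545 gave 158, 176.4 and 163.6 against 160.6, 185.4 and 157.4, with groups that overlap, and ILMN_1224767 was detected on no array.

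The subunits of dolichol-phosphate mannose synthase, which supplies the mannose, also parted. *Dpm3* gave 1264, 1135 and 1204 against 2176, 2085 and 2168 and rose by 0.93 (adjusted p = 0.00493 from limma). *Dpm1* was higher on 1 of 3 tested probes, all dim (adjusted p = 0.00845 from limma). This probe was detected on 1 scramble array and on 3 DJ-1 siRNA arrays. Its size is uncertain, and without background correction the log2 difference was 0.25. The other probes gave 0.06 (adjusted p = 0.864) and -0.37 (adjusted p = 0.425). *Dpm2* fell by 0.44 (adjusted p = 0.0285 from limma). *Dpm3* was called in all 15 alternatives and *Dpm1* in the 14 that tested it. *Dpm2* was called in 9 of 15, but not without scramble 2 or 3 or DJ-1 siRNA 1 or 3 (adjusted p of 0.0504 to 0.0965 from limma). *Dolk*, dolichol kinase, fell by 0.38 (adjusted p = 0.0432 from limma), and *B3galnt2* fell by 0.46 on 1 of 4 tested probes (adjusted p = 0.0240 from limma), or by 0.26 without background correction. Its other probes gave 0.20, -0.10 and -0.03, none of them called. The calls of *Dolk* and *B3galnt2* were lost in 9 and 7 of 15 alternatives. For *Dolk*, leaving out any array but scramble 2 gave an adjusted p of 0.0714 to 0.130, and for *B3galnt2*, leaving out scramble 1 or 2 or DJ-1 siRNA 1 or 3 gave 0.0504 to 0.0935. *B4gat1*, with the highest signal of the list, gave 0.26 (adjusted p = 0.118 from limma) and was called higher in 4 of 15 alternatives (adjusted p of 0.0229 to 0.0499).

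Of the intracellular partners, 14 of 43 probes were tested, with a median of -0.27, and 5 were lower and 1 higher, beside 13.6% and 16.5% of all tested probes. Desmin, *Des*, the intermediate filament of muscle, gave 25169, 27068 and 23264 with scramble siRNA and 17857, 21093 and 17171 with DJ-1 siRNA. It fell by 0.56 (adjusted p = 0.00760 from limma), and by 0.32 with scaling to the 75th percentile after background correction (adjusted p = 0.0554 from limma, the one alternative that lost the call). Caveolin 3, *Cav3*, gave 894.2, 885.8 and 983.2 against 621.9, 706.9 and 572.8 and fell by 0.59 (adjusted p = 0.0117 from limma). That call was lost without DJ-1 siRNA 1 alone (adjusted p = 0.0522 from limma).

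*Sync*, which encodes the desmin-binding syncoilin, fell by 1.11 on 1 probe (adjusted p = 0.0190 from limma) and gave -0.01 on the other. *Ank3*, ankyrin G, fell by 1.42 on ILMN_2484322 (adjusted p = 0.0233 from limma) and gave 0.45 on another tested probe (adjusted p = 0.0590 from limma). *Mast2* fell by 0.37 on 1 of its tested probes (adjusted p = 0.0269 from limma). Keratin 19, *Krt19*, rose by 1.08 near background, with groups that overlap in signal (adjusted p = 0.0481 from limma). These calls were lost in 5 of 15 alternatives for *Sync*, 3 of 15 for *Ank3*, 8 of 15 for *Mast2* and 7 of 14 for *Krt19*. Leaving out scramble 2 or 3 or DJ-1 siRNA 1 or 3 gave an adjusted p of 0.0547 to 0.0681 for *Sync*. For *Ank3* it was 0.0713 without DJ-1 siRNA 1 and 0.0662 without DJ-1 siRNA 3. For *Mast2* any array but scramble 1 gave 0.0579 to 0.0868, and for *Krt19* scramble 1 or 3 or DJ-1 siRNA 1 or 3 gave 0.105 to 0.144. Without background correction *Sync* gave -0.48 and *Krt19* 0.39. *Ank2* and *Aqp4* were detected on no array.

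**Figure D4:**
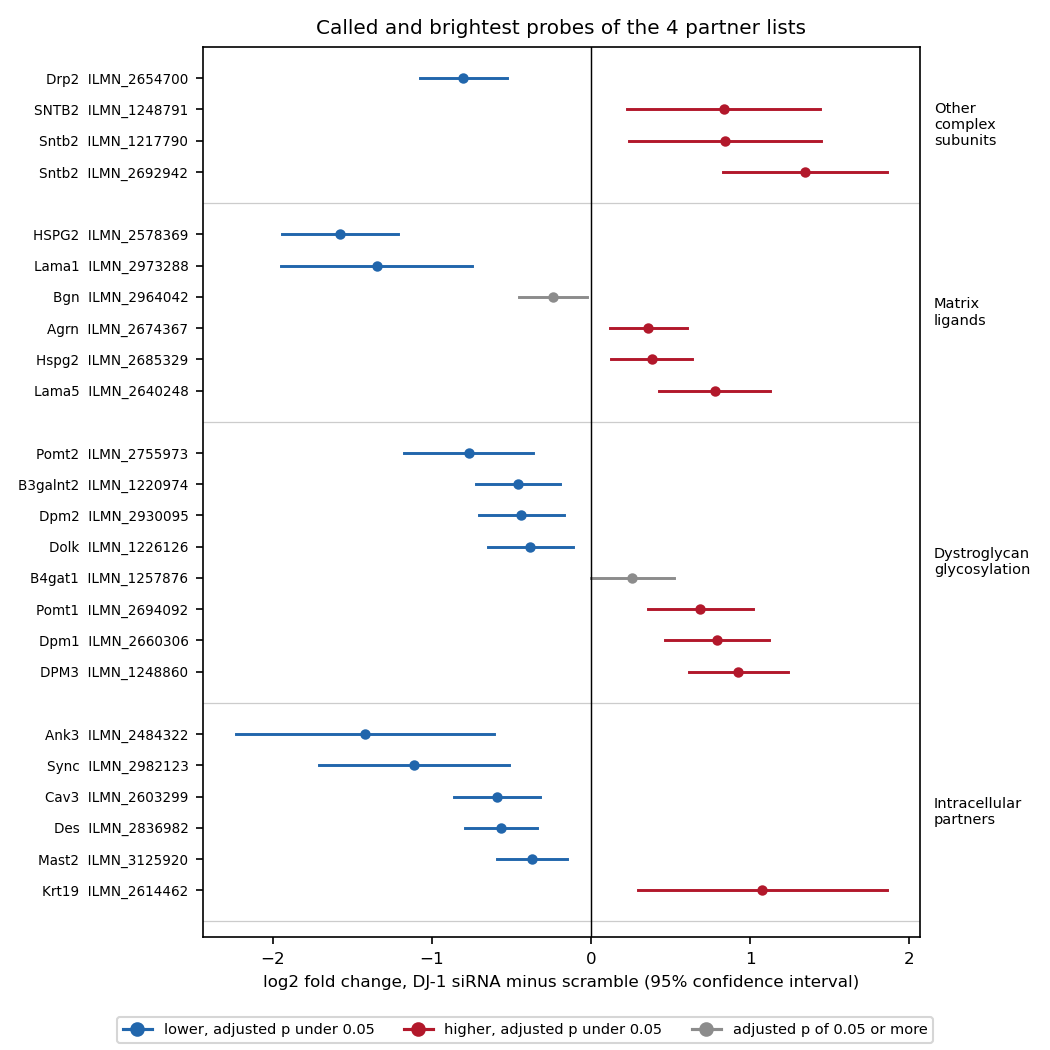
Log2 fold change, DJ-1 siRNA minus scramble, with its 95% confidence interval from limma, for the 22 called probes of the 4 lists and for the probe of highest signal in each. Blue marks 12 probes called lower, red 10 called higher and grey 2 not called; *Sntb2* has 3 red probes, and *Hspg2* has probes on both sides of 0.

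Some markers of the myotube state were lower beside SGCA. Of 15 tested probes for 10 myotube markers, 7 were lower after knockdown (13.6% of all tested probes were) and the other 8 did not pass the limma test, with a median of -0.38. The calls, named after their values had been seen, were 3 probes of the perinatal myosin *Myh8* (-1.11 to -1.01), 2 of the fusogen *Mymk* (-0.66 and -0.63), *Tnnc2* (-0.82) and *Tnnt3* (-0.52). *Acta1*, with the highest signal of the list, gave -0.01 (adjusted p = 0.977 from limma). The summed signal of the list was 231660, 245990 and 220680 with scramble siRNA and 204151, 236308 and 173617 with DJ-1 siRNA, which overlap. All 10 markers were detected on every array, as the label of differentiated myotubes has it. The part of these changes in the result for SGCA was not tested.

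Among markers of cycling myoblasts, 1 of 11 tested probes was lower and 0 higher, beside 13.6% and 16.5% of all tested probes. The lower probe was of *Ccnb1* (-0.57, adjusted p = 0.0161 from limma). The other 10 did not pass the test, among them another *Ccnb1* probe (-0.31, adjusted p = 0.166 from limma). The summed signal of this list was 10334, 11018 and 9536 with scramble siRNA and 9761, 11702 and 8810 with DJ-1 siRNA. *Cdk1*, on the probe with the highest signal of the list, gave 0.30 (adjusted p = 0.0713 from limma), and *Pax7* was detected on no array. Markers of other cell types were mostly at or near background, except 2 osteocalcin probes of the osteoblast list that were detected on every array. The brighter, of *Bglap2*, gave 673.1, 528.6 and 579.5 against 437.7, 573.8 and 345.0. *Adipoq*, *Plin1*, *Cfd* and *Lep* of the adipocyte list, *Runx2* and *Sp7* of the osteoblast list and *Csf1r* and *Ptprc* of the macrophage list were detected on no array. The summed signal was 849.0, 810.1 and 756.5 against 754.7, 782.8 and 708.6 for 5 adipocyte probes, 2473, 2382 and 2350 against 2254, 2516 and 2039 for 12 osteoblast probes and 1324, 1444 and 1251 against 1402, 1403 and 1320 for 9 macrophage probes. Of these lists 6 probes could be tested, with adjusted p-values between 0.0814 and 0.983 (limma). *Bglap2* gave -0.48 (adjusted p = 0.113) and *Cd68* of the macrophage list, at the detection limit, 0.52 (adjusted p = 0.169). *Fabp4* of the adipocyte list was detected on scramble 1 alone (198.4).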

How the data were processed

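RNA of 3 scramble and 3 DJ-1 siRNA samples was hybridized to 1 Illumina Mouse WG-6 BeadChip. The authors quantified it in GenomeStudio and deposited, for each probe and array, the signal intensity, its standard error over beads, the bead count and the detection p-value, neither normalized nor background-subtracted. In R 4.3.3 with limma 3.58.1, neqc corrected the background (normexp, offset 16, controls inferred from the detection p-values), normalized by quantiles and took log2. Probes whose detection p was under 0.05 on 3 arrays or more, 17890 in all, were fitted with lmFit and eBayes, with Benjamini-Hochberg adjustment over all of them and a threshold of 0.05. The number of arrays limits the precision.

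Gene names are those of the file, updated for 32345 probes through the RefSeq table of GRCm38.p6. The array file names no build, and only the promoter windows, from GRCm38.p6, have coordinates. Besides the members and *Park7*, the probes named are, in each partner list, those called, up to 4 per direction, and the one with the highest signal, and in each marker list the gene with the brightest probe and those detected on no array. *Mast2*, *Fabp4*, the called marker genes and the partner genes detected on no array were named after their values were seen. Of the list of further subunits 2 genes are not reported here, and the counts leave them out. Members and lists were chosen with earlier results of these data known. The steps were tested on simulated data. Alternatives were other background corrections, normalizations, filters, variance models, array weights, an unmoderated test, a replicate block, each array left out and means per gene. A planned test of UTRN minus DMD could not be run.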

Additional observations from a re-analysis of the deposited data

How the results depend on the processing

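The 3 falls of SGCA kept their direction in every alternative. Over 16 alternatives, 697 values were recomputed, of which 570 stayed on their side of the threshold or within 1.5 times, 87 lost and 11 gained a call, and 23 counts moved by more. No called probe reversed. Uncalled values near 0 changed sign: SGCB ILMN_1255256 without scramble 2, scramble 3 or DJ-1 siRNA 1 (-0.032 to 0.026 over the arrays left out), SGCD ILMN_2605539 (-0.030 to 0.23), SNTB1 (-0.045 to 0.63), and *Bgn*, at 0.036 after a 75th percentile shift. The cause was not tested.

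Without a filter 3519 probes were called, 1908 higher and 1611 lower, with 8 lower and 5 higher in the partner lists. In that fit all 45281 probes shared the adjustment and also set the prior variance, and the part of each was not tested. With detection p under 0.01 on all arrays 0 member probes were higher, since the dim probes were no longer tested, and with an unmoderated t-test it was also 0 (adjusted p = 0.0587 and 0.0707). Averaging the probes of a gene turned 3 lower SGCA probes into 1 gene. With 1 array left out the counts ran from 2564 to 5290 in all (1392 to 2870 higher, 1172 to 2420 lower), from 1 to 3 for members higher, and from 4 to 11 lower and 5 to 10 higher in the partner lists.

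With the replicate number as a block, 4350 probes were called in place of 5387, and 6 partner probes were higher in place of 10. The numbers were not taken as pairs, since deviations of same-numbered samples correlated at 0.054, 0.047 and 0.020. Every sample correlated best with its own number, a hint from the data and not from the design. Signal near background limits what can be said of DMD, UTRN, SNTB1 and the dim DTNA probes.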
